A study of Mus musculus with 2 samples.

Results

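The genes described here are 20 mouse protein-coding genes whose RNA, as quantified per transcript, was assigned mostly to isoforms annotated as targets of nonsense-mediated decay (NMD). They were chosen by their measured values. A gene was taken when its transcripts summed to at least 5 TPM (transcripts per 1000000, a measure of level that is corrected for length) and its NMD isoforms held at least 50% of that sum, in both libraries. Genes whose symbols start with Rpl, Rps, Srsf, Clk, Hnrnp or Psm were left out, which removed 3 of the 23 genes that met the rule, Hnrnpd, Rpsa and Hnrnpa1. The 20 genes were selected out of 4447 coding genes that reached the TPM minimum outside those families, and out of 21901 genes with a protein-coding transcript. Because the shares and levels made the choice, they are given as a description and none of them is tested.

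NMD is the pathway by which cells destroy mRNAs that stop translation too early. Exon junction complexes stay on an mRNA after splicing, and a ribosome that stops well upstream of such a complex recruits UPF1 and its partners, after which the mRNA is degraded. Translation, and with it NMD, takes place mainly in the cytoplasm. Isoforms that end early arise from retained introns, extra or skipped exons and shifted splice sites, and some genes use them to hold their own mRNA down. The NMD label of an isoform comes from the position of its stop codon in the annotation and is not a measurement of decay.

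The study sequenced total RNA, cleared of ribosomal RNA, of the nucleoplasm (the source label says nucleus) of bone marrow-derived macrophages of strain C57BL/6J. These are macrophages grown from mouse marrow. All cells had received lipid A, the part of bacterial lipopolysaccharide that activates the receptor TLR4, at 100 ng/ml for 50 min. The single group had 2 libraries, which the labels call biological replicates of their own, with 500 ng of RNA used for replicate 1 and 1 µg for replicate 2. Libraries without lipid A were not analysed here, and so none of the values measures a response to it.

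Replicate 1 had 10395301 expected counts over all transcripts, and replicate 2 had 20515408. All 8 macrophage markers, among them Lyz2, Csf1r and Adgre1, were present at 16.83 to 1507 TPM. The 4 T and NK cell markers had no counts, and the highest of the B cell, neutrophil, erythroid and stromal markers was Kdr at 3.90 and 3.44 TPM. In bulk RNA, fewer cells of a type and less RNA per cell cannot be told apart.

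The last 30 coding bases, 5′ to 3′, are shown for the isoform of highest TPM in each class (the leading isoform) of 5 genes, with the stop codon in capitals, from the GENCODE M21 transcripts of the mm10 build. Ddx5 and Khnyn are shown because their stop codons lie within or next to a splice site that the coding isoform uses, Oas1g and Cyb5r1 because theirs lie in exon sequence that the coding isoform lacks, and Gm38394 because its entries cannot be told apart.
Ddx5-208, NMD: accgatgtggcctccagagggctaggtTAG
Ddx5-201, coding: tatcccatgccaacagggtattctcaaTAA
Khnyn-203, NMD: aagtggatggcgatcatcagagagcggTGA
Khnyn-201, coding: tctgaggccctgctgagtctcaacttcTGA
Oas1g-203, NMD: cactgtgggcttcatctgtacagagtgTAG
Oas1g-201, coding: gaggagaactggacatgtatcctgctgTGA
Cyb5r1-205, NMD: gacccgagtactgtgccctgtctctggTGA
Cyb5r1-201, coding: tattcacaaaagatgcgattcacctacTGA
Gm38394-202, NMD: cagagcaatgaaaaagaaatactacctTAA
Gm38394-201, coding: cagagcaatgaaaaagaaatactacctTAA

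The NMD stop codon of Ddx5 lies at chr11:106783954-106783956 on the minus strand, and that of the coding isoform at chr11:106781850-106781852. Only 2 bases of the retained intron are read before the NMD stop of Ddx5, and these are the gt that begins the intron. The NMD stop of Khnyn lies at chr14:55894101-55894103 on the plus strand, and the coding stop at chr14:55895110-55895112. There, 1 base of the intron of the coding isoform is read before the stop, so the stop codon overlaps the splice site that the coding isoform uses. The NMD stop of Oas1g lies at chr5:120881837-120881839 on the minus strand, against chr5:120876995-120876997 for the coding isoform. That of Cyb5r1 lies at chr1:134408026-134408028 on the plus strand, against chr1:134411077-134411079. In Gm38394 both isoforms stop at chr1:133656655-133656657 on the minus strand.

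NMD isoforms were a small part of the coding RNA as a whole. Of the 4447 genes, 1521 (34.2%) had an annotated NMD isoform, and 3492 had an NMD share of 0 in at least 1 library. Of the TPM of the 4447 genes, NMD isoforms held 2.43% (replicate 1) and 2.45% (replicate 2). The 20 genes are 0.45% of the 4447, and they supplied 6.53% of that NMD TPM in replicate 1 and 7.26% in replicate 2. Ddx5 alone made up 44.7% of the 20 genes' NMD TPM in replicate 1 and 48.7% in replicate 2.

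The shares run up to the threshold without a gap. By the lower of their shares in the 2 libraries, the genes just inside were Gm38394 at 50.0%, Ddx5 at 50.1%, Mtmr12 at 50.5% and Vps11 at 50.9%. Just outside were Cd300c2 at 49.0%, Rabggtb at 48.5%, Nlrp1b at 48.0% and Snapc3 at 47.9%. A total of 33 genes lay between 40% and 50%, 15 between 50% and 60%, 4 between 60% and 70%, and 1, Khnyn, above 70%.

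**Figure D1:**
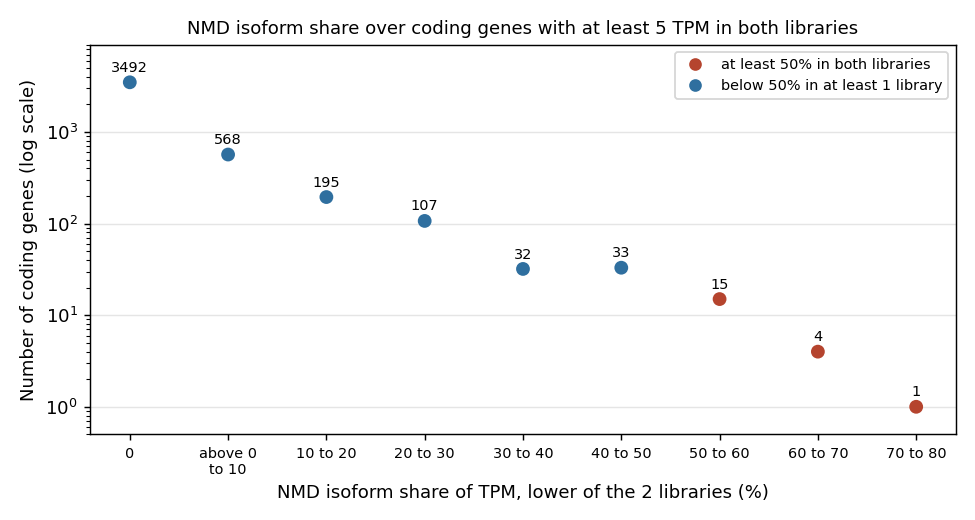
Number of coding genes (log axis) by the lower of their 2 NMD isoform shares of TPM (%), for the 4447 genes with at least 5 TPM in both libraries. Most genes, 3492, are at 0, and the 20 genes at or above 50% are the last 3 points (15, 4 and 1 genes).

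The 20 genes fall into groups by known role, which were formed after the genes were known. Genes of antiviral defence were Mx1, Oas1g and Khnyn. Genes of RNA processing were Ddx5 and Clasrp. Ostf1, Pdgfc, Rnf114 and Sh2b3 act in signalling. Cdipt, Mtmr12, Stard9, Tmf1 and Vps11 act in membranes and transport, and Cyb5r1, Naa60, Ndufa3 and Ppcdc are enzymes or subunits of enzymes. Zmym5 is a zinc finger protein, and no role is given here for Gm38394.

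Among the antiviral genes, Khnyn had the highest lower share of all 20 genes. Khnyn (chr14:55884947-55898775, plus strand) encodes a KH and NYN domain protein, which in human cells works with the zinc finger antiviral protein ZAP against viral RNA. Its level was 15.41 TPM (replicate 1) and 9.14 TPM (replicate 2), and its NMD share was 79.2% in replicate 1 and 71.1% in replicate 2 (75.2% ± 5.74, SD, n = 2). The single NMD isoform Khnyn-203 had 12.21 and 6.5 TPM, against 0 and 1.13 TPM for the coding isoform Khnyn-201. The remainder was the retained-intron isoform Khnyn-202, with 3.20 and 1.51 TPM. In replicate 1 no read of this gene was assigned to its only annotated coding isoform.

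Oas1g (chr5:120876142-120887613, minus strand) belongs to the family of oligoadenylate synthetases, which sense double-stranded RNA and activate RNase L. It had 25.71 TPM (replicate 1) and 22.91 TPM (replicate 2), with NMD shares of 68.7% and 60.1% (64.4% ± 6.04, SD, n = 2). The NMD isoform Oas1g-203 had 17.65 and 13.77 TPM, against 2.03 and 2.62 TPM for the coding isoform Oas1g-201. As in Khnyn, an isoform with a retained intron, at 6.03 and 6.52 TPM, was also above the coding isoform in both libraries. Oas1g has close relatives in the genome, and reads shared with them could be split in ways that the tables do not show.

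Mx1 (chr16:97447035-97462907, minus strand) encodes an interferon-induced GTPase that blocks influenza viruses. Many laboratory strains, C57BL/6 among them, are known to carry a deletion in this gene and to make no working protein. It had 29.48 TPM in replicate 1 and 23.44 TPM in replicate 2. Its NMD share was 77.6% in replicate 1 and 51.0% in replicate 2, which differ by 26.7 percentage points, the widest gap among the 20 genes. The TPM was spread over 3 NMD isoforms, led by Mx1-205 at 16.16 and 7.78 TPM, against 3.68 and 5.19 TPM for the leading coding isoform Mx1-202.

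Ddx5, a DEAD-box RNA helicase that acts in splicing and transcription, was by far the most abundant of the 20 genes. Ddx5 (chr11:106780355-106789185, minus strand) had 440.7 TPM (replicate 1) and 269.4 TPM (replicate 2), which placed it above 98.2% of the 4447 genes by mean TPM. Its NMD share was 50.1% in replicate 1 and 56.4% in replicate 2 (53.2% ± 4.43, SD, n = 2), so it met the rule narrowly in replicate 1. The NMD isoform Ddx5-208 had 221 and 152 TPM, against 155 and 79.1 TPM for the coding isoform Ddx5-201. These rest on 8366 and 17535 expected counts for Ddx5-208, against 5832 and 9048 for Ddx5-201.

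Clasrp encodes a protein rich in serine and arginine that binds the kinase CLK4 and takes part in splicing control. It had 15.12 TPM (replicate 1) and 12.94 TPM (replicate 2), and an NMD share of 61.2% and 56.1% (58.7% ± 3.63, SD, n = 2). Here the share was spread over several isoforms, of which Clasrp-209 led with 5.58 and 3.26 TPM, against 2.01 and 1.32 TPM for the coding isoform Clasrp-201. Retained-intron isoforms held a further 25.5% and 33.7%, so that the coding class was left with 13.3% and 10.2%.

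The 4 signalling genes had shares between 51.6% and 66.2%. Sh2b3, also called LNK, encodes an adaptor that limits signals from cytokine receptors. It had 13.59 and 10.74 TPM in replicates 1 and 2, with shares of 66.2% and 61.1%, and the NMD isoform Sh2b3-205 had 8.99 and 6.56 TPM, against 4.35 and 3.29 TPM for the coding isoform Sh2b3-202. Rnf114, an E3 ubiquitin ligase, had 18.98 and 13.54 TPM with shares of 60.01% and 65.4%. Ostf1, an SH3 and ankyrin repeat protein first described as a factor that stimulates osteoclasts, had 17.49 and 14.82 TPM. Its share was nearly the same in the 2 libraries, 53.1% and 53.0%. Pdgfc, a growth factor ligand of the PDGF receptors, had 13.05 TPM with a share of 51.6% in replicate 1 and 8.59 TPM with 53.3% in replicate 2. In Pdgfc the leading NMD isoform was not above the leading coding isoform: Pdgfc-202 had 4.77 and 3.53 TPM, against 6.31 and 4.01 TPM for Pdgfc-201, and a further NMD isoform brought the class past the threshold.

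Of the membrane and transport genes, Stard9 was the most abundant. Stard9 encodes a kinesin motor with a START lipid-binding domain, and had 67.45 TPM with an NMD share of 60.4% in replicate 1 and 34.68 TPM with 56.3% in replicate 2. Its coding class held only 7.61% and 19.2%, and the leading NMD isoform Stard9-203 had 33.14 and 13.08 TPM, against 5.13 and 6.65 TPM for the leading coding isoform Stard9-206. Mtmr12, a myotubularin-related protein without phosphatase activity that serves as an adaptor, had 46.18 and 21.15 TPM, with shares of 50.5% and 65.0%. Cdipt, the enzyme that makes phosphatidylinositol, had 26.31 and 18.76 TPM, with shares of 55.5% and 54.6%. Cdipt is another gene whose leading NMD isoform did not exceed its leading coding isoform in each library: Cdipt-207 had 10.58 and 9.82 TPM, against 11.32 and 7.72 TPM for Cdipt-201.

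The other genes of this group were lower. Vps11, a subunit of the complexes HOPS and CORVET that tether endosomes and lysosomes, had 12.85 and 9.77 TPM, with shares of 53.2% and 50.9%. Its coding isoform Vps11-201 was above the leading NMD isoform in both libraries, with 3.56 and 3.31 TPM for Vps11-205, against 5.17 and 3.82 TPM for Vps11-201. Tmf1, a Golgi-associated coiled-coil protein, had 14.13 and 7.86 TPM, with shares of 63.8% and 60.8%. Only 1 NMD isoform, Tmf1-202, carried the share of Tmf1.

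Of the enzymes, Cyb5r1, of the cytochrome b5 reductase family, had 22.39 TPM with a share of 64.3% in replicate 1 and 15.27 TPM with 52.5% in replicate 2. The NMD isoform Cyb5r1-205 had 14.40 and 8.02 TPM, against 6.96 and 6.28 TPM for Cyb5r1-201. Ppcdc, a decarboxylase of coenzyme A synthesis, had 18.47 and 9.02 TPM, with shares of 55.9% and 73.6%. Its leading coding entry, Ppcdc-206, is only 318 nt long and rested on 6.56 and 5.05 expected counts. Naa60, an N-terminal acetyltransferase of the Golgi, was the lowest of the 20 genes by mean TPM, with 9.47 and 5.46 TPM and shares of 68.6% and 59.0%. Ndufa3, an accessory subunit of respiratory complex I, had 9.37 and 7.33 TPM, and these came from 17 and 59 expected counts. Its shares of 84.1% and 59.6% were the least well counted of all, since no other of the 20 genes had under 100 counts in a library.

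Zmym5 had 19.44 TPM with a share of 69.5% in replicate 1 and 6.93 TPM with 55.6% in replicate 2, the largest difference in level between the libraries as a ratio. Gm38394 had 55.90 and 26.04 TPM and a share of exactly 50.0% in both. Its NMD and coding entries have the same exons and the same sequence, so reads cannot distinguish them and each was given an equal part. Gm38394 also shares 5007 exon bases with Zbed6, at 0 and 2.52 TPM, and 4392 with Zc3h11a, at 145 and 66.2 TPM, on the same strand. A further Zc3h11a entry shares 4264 bases and was at 0.05 and 7.54 TPM. The annotation tags Gm38394-202 as a readthrough transcript, one that joins neighbouring genes. The place of Gm38394 among the 20 genes therefore rests on how equal entries are divided.

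**Figure D2:**
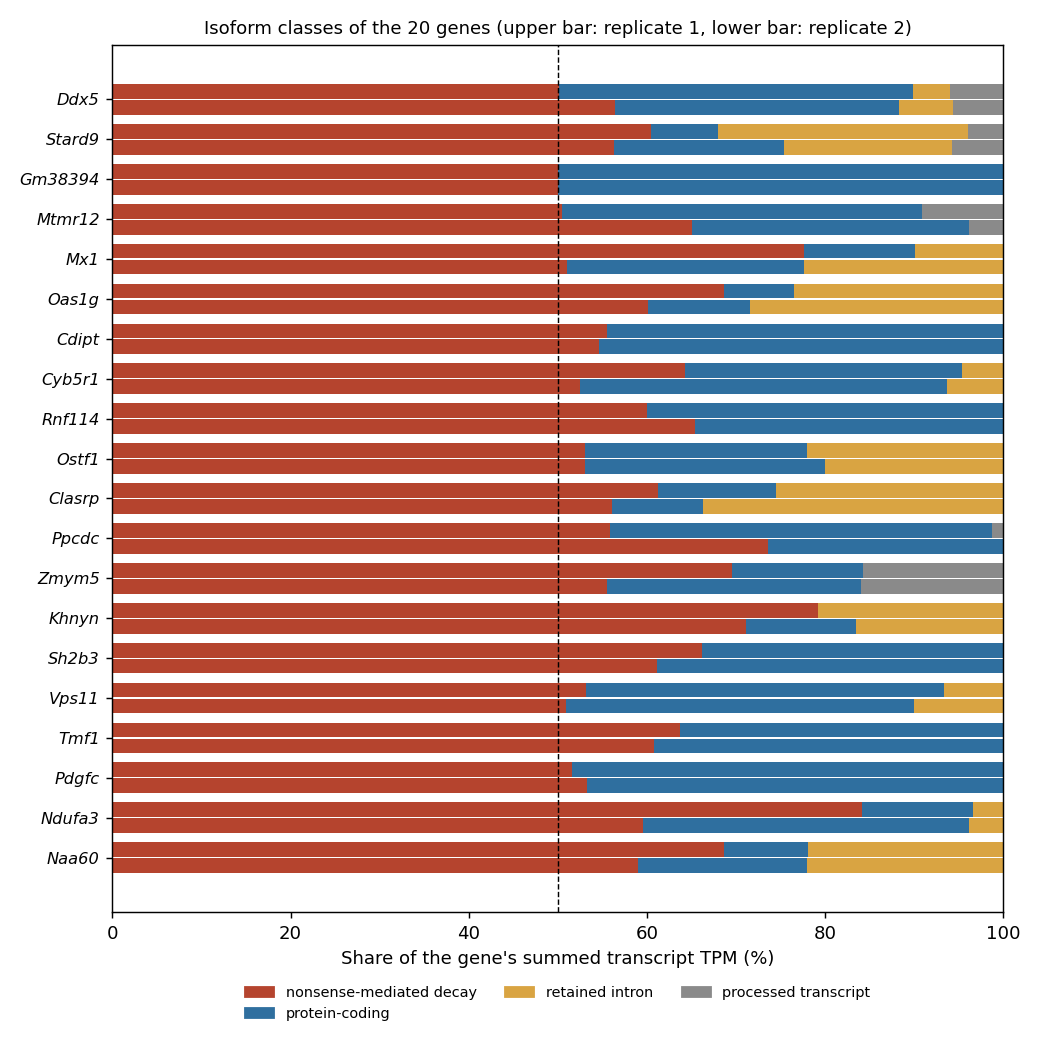
Share of each gene's summed transcript TPM (%) by annotated isoform class, with the upper bar for replicate 1 and the lower for replicate 2, and the dashed line at 50%. All 20 genes reach the line in both libraries. Ndufa3 and Mx1 show wide gaps between their bars, and Gm38394 sits on the line.

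The levels of the 20 genes resembled those of expressed coding genes in general. Their median was 18.7 TPM in replicate 1 and 13.2 TPM in replicate 2, against 20.9 and 13.3 TPM for the 4447 genes. By mean TPM, 12 of the 20 lay below the median of the 4447, 17.2 TPM. Ddx5 stood alone at a mean of 355 TPM ± 121 (SD, n = 2), 6 genes from Stard9 to Cdipt were between 20 and 60 TPM, and 13 were below 20 TPM. Together the 20 genes held 0.360% of annotated expected counts in replicate 1 and 0.318% in replicate 2. All 20 had a lower TPM in replicate 2, as did 92.2% of the 4447, with a median log2 ratio of replicate 2 to replicate 1 of -0.58 for the 20 genes and -0.64 for the 4447. The part of all TPM that lay in coding genes, those of the mitochondrial genome left out, was 26.2% for replicate 1 and 17.0% for replicate 2. The ratio ranged from -1.49 for Zmym5 to -0.17 for Oas1g.

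The shares varied between the libraries by a median of 5.81 percentage points. They were within 5 points for 7 genes and within 10 points for 14. Of the 20 genes, 14 had the higher share in replicate 1, 5 in replicate 2 and 1 was equal. The largest gaps were those of Mx1, at 26.7 points, Ndufa3, at 24.5, Ppcdc, at 17.7, Mtmr12, at 14.5, and Zmym5, at 14.0. The rule applied to replicate 1 alone gave 71 genes, and applied to replicate 2 alone, the more deeply sequenced library, gave 26. Of the 51 further genes of replicate 1, 25 were below 5 TPM in replicate 2 and 26 had a share below 50% there.

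The coding class was the next largest in both libraries in 14 of the 20 genes and in 1 library in 2 more, Stard9 and Zmym5. It was below 25% in both libraries in 5 genes, Stard9, Oas1g, Clasrp, Khnyn and Naa60, against 205 (4.61%) of the 4447, and the rule itself holds it to 50% at most. In 4 genes, Oas1g, Clasrp, Khnyn and Naa60, retained-intron isoforms held more TPM than coding isoforms in both libraries, against 642 (14.4%) of the 4447. A nuclear fraction can hold RNA that is not fully spliced, and its part in these shares was not tested.

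For 16 of the 20 genes the leading NMD isoform had a higher TPM than the leading coding isoform in both libraries, against 90 (5.92%) of the 1521 genes with an NMD isoform. The deposited interval of the NMD isoform lay wholly above that of the coding isoform in both libraries for 10, Ddx5, Stard9, Mx1, Oas1g, Cyb5r1, Ostf1, Zmym5, Khnyn, Sh2b3 and Tmf1, against 2.30% of the 1521. These values come from the same TPM as the choice of genes and describe how far apart the isoforms were. The level of the intervals is not given in the sources used here, and an interval need not hold the TPM itself: that of Ddx5-208 in replicate 1 ran from 193 to 206 with a TPM of 221.

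**Figure D3:**
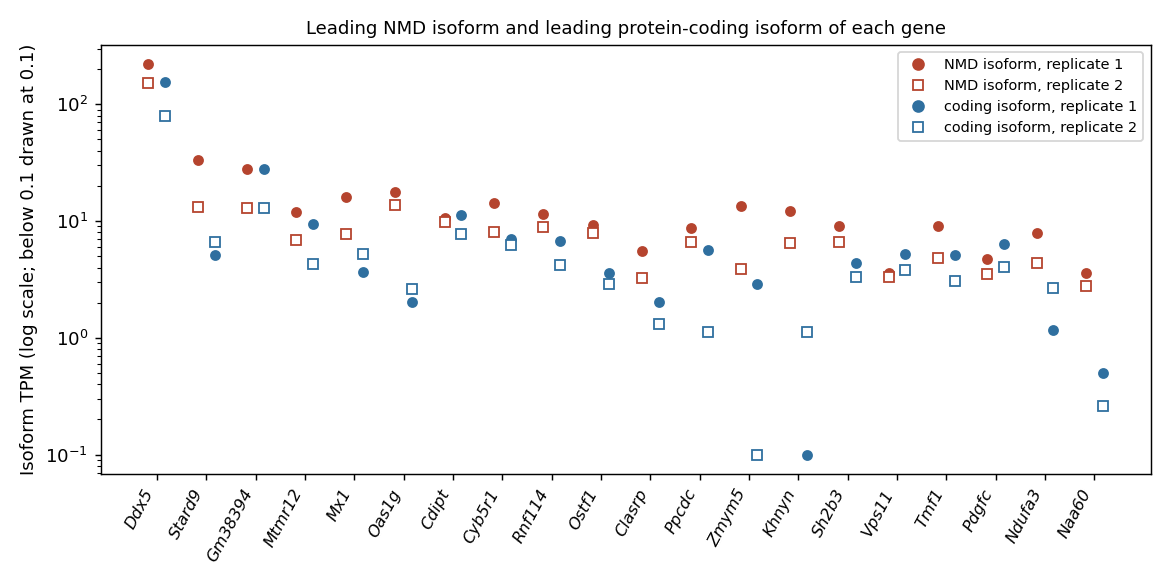
TPM (log axis) of the leading NMD isoform and, to its right, the leading coding isoform of each gene, with filled circles for replicate 1 and open squares for replicate 2 and values below 0.1 drawn at 0.1. The NMD points lie above the coding points in both libraries for 16 genes, and Khnyn-201 in replicate 1 and Zmym5-201 in replicate 2 are at 0. In replicate 2 the coding isoforms Zmym5-202 and Zmym5-203, not drawn, had 1.40 and 0.57 TPM.

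Apart from the stop codon position behind the NMD label, the structure of the isoforms was not used by the rule. In 19 of the 20 genes (95.0%) the leading NMD isoform started at the same start codon as the leading coding isoform, against 58.3% of the 1521 genes. No leading NMD isoform among the 20 lacked an annotated start, against 31.2% of the 1521. The annotation gave its best support level, 1, to 13 of the 20 (65.0%), against 29.3% of the 1521. It gave the weakest, 5, to 3 (15.0%), those of Stard9, Tmf1 and Ndufa3, against 32.3% of the 1521. The leading NMD isoforms of Khnyn, Ostf1 and Zmym5 had no support level. The leading NMD isoform was longer than the leading coding isoform in 10 of the 20 (50.0%), against 18.3%, with a median length of 2622.5 nt in the 20 genes and 1294 nt in the 1521. Its reading frame had a median of 275.5 codons in the 20 genes, against 102 in the 1521. The 1521 include genes whose NMD isoforms were all at 0 TPM in both libraries, such as Ptbp3. There the leading NMD isoform is only the first listed. Structural comparisons with the 1521 therefore partly set expressed isoforms against unexpressed ones. A level or share per isoform depends on which models the annotation holds, and the part of this in the choice of genes was not tested.

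In all 20 genes the stop codon lay more than 50 nt before the last exon junction, as in 99.3% of the 1521. As a rule the NMD label is given by the stop position, so this follows from the class. The distance had a median of 398 nt and ran from 56 nt in Ndufa3 to 12430 nt in Stard9. In Gm38394 it was 3630 nt for the NMD and the coding entry alike, so there the stop position does not separate the classes. The kinds of splicing change were mixed. The most common was a moved splice site, in 9 of the 20 genes (45%), against 35.8% of the 1521. In Clasrp the 5′ splice site lay 4 nt further into the intron, in Ndufa3 10 nt, in Khnyn 60 nt and in Oas1g 61 nt, whereas the exon was 28 nt shorter in Mtmr12, 17 nt in Zmym5 and, upstream of the start codon, 182 nt in Mx1. In Cdipt and Cyb5r1 the exon began earlier, by 49 nt and 587 nt. In 8 of these 9 genes the change in exon length was no multiple of 3, though that of Mx1 lies outside the reading frame. In Khnyn, where it was a multiple of 3, the stop codon lay at the start of the added bases.

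A retained intron was found in 3 genes (15.0%), against 3.88% of the 1521. In Ddx5 the leading NMD isoform kept an intron of 1265 nt, in Vps11 it kept 2 introns with 481 nt in all, and in Sh2b3 1 intron of 80 nt. The Ddx5 intron also holds the miRNA genes Mir3064 and Gm25994, both at 0 counts in these tables. A new cassette exon, present in no coding isoform, was found in 3 genes (15.0%), against 23.9%: 2 exons of 72 and 127 nt in Stard9, 1 of 77 nt in Ostf1 and 1 of 59 nt in Pdgfc. An exon was skipped in 4 genes (20.0%), against 33.2%: 151 nt in Rnf114, 157 nt in Tmf1, 56 nt in Zmym5 and 88 nt in Sh2b3. Naa60-201 used the stop codon of the leading coding isoform Naa60-211 and had an intron downstream of it. The frame of Naa60-201 was the longer, with 242 codons against 177 in Naa60-211. That coding entry is only 876 nt long and rested on 3.65 and 5.97 expected counts. Gm38394 showed no difference at all. Mx1-205 and Ppcdc-213 held 2 and 3 exons that their leading coding isoforms lack and that other coding isoforms of these genes share in whole or in part. In 18 genes the isoforms shared the start codon and then parted, and 1 (Khnyn) to 299 (Mx1) bases, with a median of 64, were read from that point to the NMD stop codon.

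**Figure D4:**
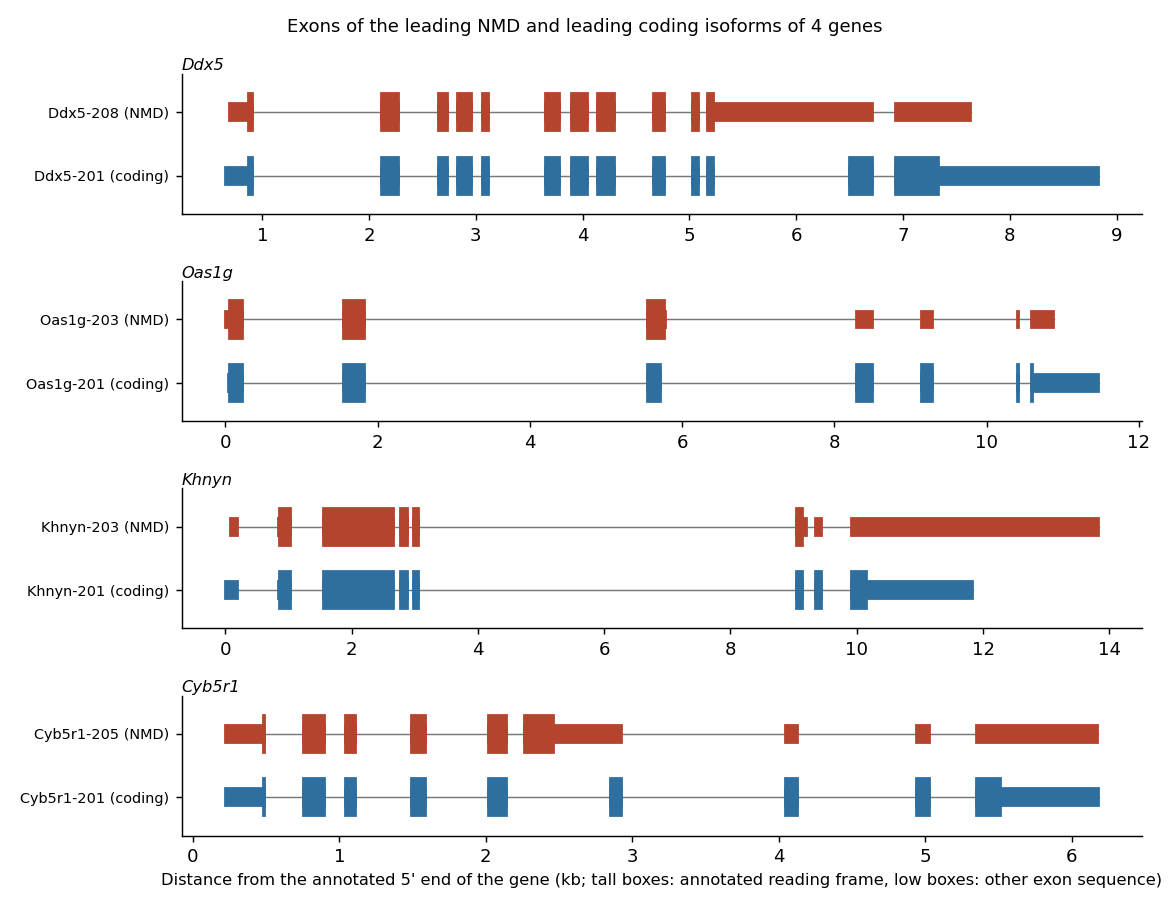
Exons of the leading NMD isoform (upper row) and leading coding isoform (lower row) of Ddx5, Oas1g, Khnyn and Cyb5r1, by distance from the annotated 5′ end of the gene (kb). Tall boxes are the annotated reading frame, low boxes other exon sequence and lines introns. The frame of the NMD isoform ends in the retained intron of 1265 nt in Ddx5 and in the exon extensions of 61, 60 and 587 nt in Oas1g, Khnyn and Cyb5r1.

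How distinct an isoform is sets how well reads can be assigned to it. In 5 of the 20 genes (25%), Gm38394, Ppcdc, Pdgfc, Ndufa3 and Naa60, the leading NMD isoform had no base and no exon junction of its own, against 9.27% of the 1521. This compares it with all other isoforms of the gene, NMD isoforms included. The exon of 59 nt in Pdgfc-202, for example, is in no coding isoform and is shared with the NMD isoform Pdgfc-203. At the other end, Khnyn-203 had 2054 bases found in no other isoform, but 1994 of them extend its 3′ end and only 60 belong to the moved splice site. Ddx5-208 had 729 bases of its own and Cyb5r1-205 had 413. The leading NMD isoform of Mtmr12 lacks 2377 bases of the 3′ end of its coding isoform, that of Tmf1 2269 and that of Zmym5 2743. The part of such end differences in the shares was not tested.

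The share also depended on the quantification. A further deposited transcript table of the same libraries, with estimated counts, gave the 20 genes a median NMD share of TPM of 49.3%, against 60.5% in the table used for the choice. Over the 1521 genes with an NMD isoform the median went the other way, 8.30% in the further table against 4.34%. The 20 genes were chosen for a high share in the first table, and the part of this choice in the difference was not tested. The share in the further table was lower for 16 genes, higher for 3 and equal for Gm38394. It was at least 50% in both libraries for 6 of the 20, Stard9, Gm38394, Cyb5r1, Clasrp, Khnyn and Vps11, where 19 of the 4447 genes (0.427%) reached it. It was below 50% in both libraries for Oas1g, Cdipt, Rnf114, Ostf1, Zmym5 and Sh2b3. Zmym5 differed most, with 15.7% and 21.7%, and there the processed transcript Zmym5-204 had 22.25 and 1.11 TPM, above the NMD isoform in both libraries. In Mx1 that table gave Mx1-205 0 and 0.0333 TPM and placed most of the NMD share on Mx1-203, at 9.54 and 2.17 TPM. The share of Ddx5 was 43.1% and 57.2%, below 50% in replicate 1, and it was divided otherwise: that table gave Ddx5-208 122.9 and 33.5 TPM and a further NMD isoform, Ddx5-205, 59.56 and 13.6 TPM, whereas Ddx5-205 was at 0 in both libraries in the table used for the choice.

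Shares of counts, which are not divided by length, gave other memberships again. By expected counts, 14 of the 20 genes were at 50% or more in both libraries, where 31 of the 4447 (0.697%) were. By the estimated counts of the other table, 11 of the 20 were, where 35 of the 4447 (0.787%) were. By all 4 measures, 5 genes stayed at 50% or more in both libraries, Stard9, Gm38394, Cyb5r1, Clasrp and Khnyn. Of these, Gm38394 does so by the equal division of identical entries. Ostf1, Vps11, Tmf1 and Pdgfc were below 50% of expected counts in both libraries.

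**Figure D5:**
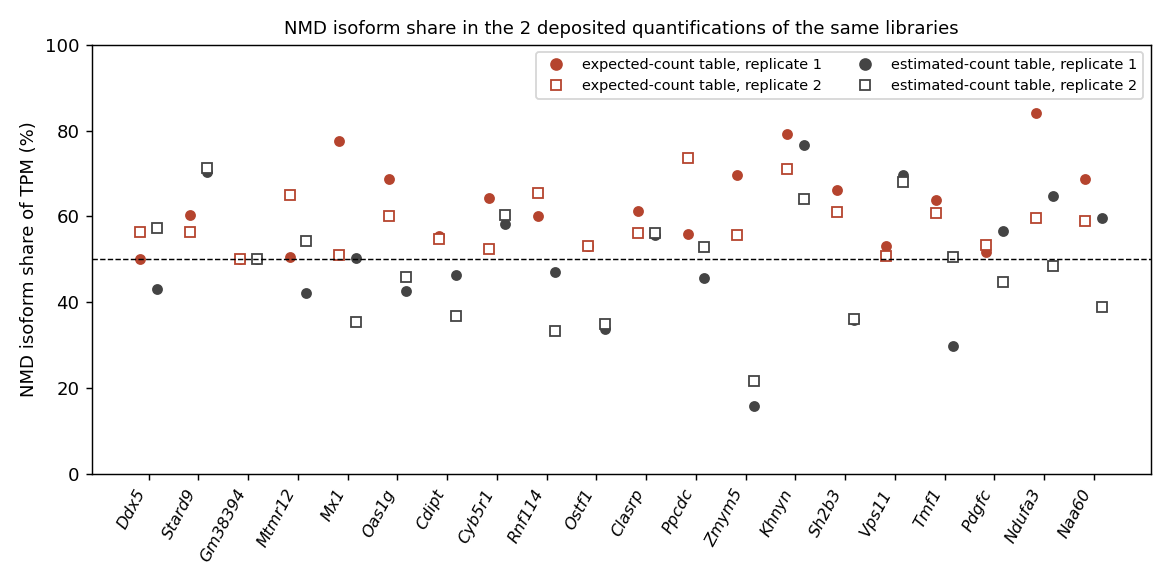
NMD isoform share of TPM (%) of each gene in the table with expected counts, which made the choice, and to its right in the table with estimated counts, with filled circles for replicate 1 and open squares for replicate 2 and the dashed line at 50%. All points of the first table are on or above the line, whereas Oas1g, Cdipt, Rnf114, Ostf1, Zmym5 and Sh2b3 lie below it in both libraries in the other.

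Neighbouring genes overlap exons of 10 of the 20 genes. The overlap is on the same strand in 3, Ddx5, Gm38394 and Naa60, and on the opposite strand in 8. Such overlaps were not counted over the other expressed coding genes, so these numbers do not show whether the 20 genes differ from them. The strand setting of the quantification is not given in the sources used here, so reads of opposite genes may not have been separated. The overlap lay in the leading NMD isoform for 1195 bases of Khnyn, opposite Sdr39u1, which had 0.71 and 0.58 TPM. All 1195 are bases that the leading coding isoform of Khnyn lacks. For Sh2b3 it lay there for 99 bases, none of them lacking in its leading coding isoform, opposite Atxn2, which had 32.27 and 17.90 TPM. In Naa60-201, 563 bases lie opposite 1700037C18Rik, at 0.71 and 0.41 TPM, with 468 of them in bases that its leading coding isoform lacks, and 467 bases are shared on the same strand with Gm20695, at 0.39 and 0 TPM. Part of Pdgfc-202, 147 bases, lies opposite Gm16000, at 2.35 and 2.30 TPM. Stard9 lies opposite Cdan1 with 2207 exon bases, none of them in Stard9-203. The part of these neighbours in the shares was not tested.

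Genes known for NMD itself or for regulated early-ending isoforms are given for their values, since lists of this size can hold few genes of a rule that takes 0.45% of the 4447. Of 25 NMD factors, 14 reached 5 TPM in both libraries, and none was among the 20 genes. An NMD isoform was annotated for 3 of the 14 factors, and for 34.2% of the 4447 genes. The highest of the NMD factors was Smg1, the kinase of UPF1, at 63.4 and 30.2 TPM, with an NMD share of 8.06% and 6.59%. Upf1, the central helicase, had 8.18 and 8.23 TPM and no annotated NMD isoform. Of 35 genes known for isoforms that end early, outside the dropped families, 31 reached 5 TPM, and 26 of those had an NMD isoform. The median NMD share of these 26 was 12.3%, against 4.34% for the 1521 genes with an NMD isoform. Of this list, 1 gene, Ddx5, was among the 20. Tial1, Tardbp and Smndc1 also had at least 25% in both libraries, with 36.8% and 49.2% for Tial1, 33.0% and 33.6% for Tardbp, and 58.4% and 25.4% for Smndc1. Over the 1521 genes with an NMD isoform, 130 (8.55%) were at 25% or more in both libraries.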

How the data were processed

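Per the file headers, the deposited transcript tables of each library hold expected counts and TPM with an interval for each TPM, and in a further deposited table the values are estimated counts and TPM. The authors' readme files name the mm10 build and annotation M21. Which programs and strand settings made these values is not given in the sources used here. Isoform classes were read from the transcript identifiers, and exons, reading frames and neighbouring genes from GENCODE mouse M21. Counts in rows that name no gene, 0.561% in replicate 1 and 0.151% in replicate 2, were left out of shares of counts.

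TPM was summed per gene over all its transcripts, and the NMD share is the percent in isoforms of that class. The leading isoform of a class has the highest mean TPM. With 1 group and 2 libraries, no test was made: values are given per library, as mean ± SD, or as counts and medians beside those of all 4447 genes above the TPM minimum. Counts cover counting error only, as reads lacking molecular identifiers need not be separate molecules. A splice site was taken as moved when an intron of each isoform shared exactly 1 end with no exon between.

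The 20 genes and the gene lists were chosen with earlier results of these data known. The rule for genes given with values took the most abundant members, those of highest share or widest gap between libraries, those at the threshold and those sharing a role, which covered all 20. Alternatives varied the unit, the quantification, both thresholds, the TPM scale, the dropped families and the libraries. Work was done in Python 3.11.15 with pandas 2.3.3, numpy 2.4.6 and matplotlib 3.10.9.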

Additional observations from a re-analysis of the deposited data

How the results depend on the processing

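Which genes meet the rule depended on most settings. In place of 20 genes, a share of expected counts gave 31 (14 of them among the 20), the other quantification 11 (2 among the 20), a minimum of 1 TPM 56, a minimum of 10 TPM 12, any TPM above 0 gave 119, a share of at least 75% gave 0, a share of at least 40% gave 53, and TPM rescaled over coding genes 56. In the other quantification, Cyb5r1, Clasrp, Khnyn and Vps11 kept the share but not the TPM minimum. Their levels there in replicate 2 were 3.84, 3.09, 2.05 and 3.14 TPM. A single library gave 26 (replicate 2 alone) to 71 (replicate 1 alone), of which the 26 is within 1.5 times of 20. So were 3 other settings: the dropped families kept (23), estimated counts of the other table (17, with 6 among the 20) and the TPM minimum kept with only the share taken from the other quantification (19, with 6 among the 20), the last chosen after seeing the data.

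The median level of the 20 genes was 15.1 TPM. It was 71.5 TPM on the scale of coding genes alone, those of the mitochondrial genome left out, and 8.02 TPM in the other quantification. Their median NMD share, 60.5%, was 49.3% in the other quantification and 56.3% to 60.8% in single libraries, and shares of expected counts, shares of estimated counts and the set without Gm38394 (62.3%, chosen after seeing the data) moved it by less than the spread between libraries. By gene, the share moved by more than its spread in 13 of 20 in the other quantification and in 15 of 20 by expected counts. Over the 1521 genes with an NMD isoform the median share was 8.30% in the other quantification, against 4.34%. The cause of these shifts was not tested.

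No paired analysis was possible because the series has 1 group and no comparison between groups. Depth limits Ndufa3 most, with 17 and 59 counts.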

Other observations

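mRNAs known to be lowered by NMD in mammalian cells were present in these libraries. Of 16 such genes, 11 reached 5 TPM in both libraries. None was among the 20 genes, where the rule takes 0.45% of 4447, and Gas5, Snhg1, Snhg12 and Zfas1 are noncoding and outside its reach. Gadd45b, a stress-induced gene, had 254.53 TPM (replicate 1) and 287.25 TPM (replicate 2), and Cdkn1a, an inhibitor of the cell cycle, had 264.25 and 193.01 TPM. Atf4, the transcription factor of the integrated stress response, had 65.32 and 43.92 TPM, and the noncoding host of small nucleolar RNAs Gas5 had 47.52 and 32.87 TPM. Among those that reached the minimum, Arfrp1, at 16.60 and 11.95 TPM, alone had an annotated NMD isoform, with a share of 11.3% and 8.54%. Such an isoform was annotated for 34.2% of the 4447.

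The 3 genes that met the rule but belong to the dropped families were all RNA-binding or ribosomal. Hnrnpa1, a splicing regulator, had 53.40 and 35.21 TPM, and its NMD share of 92.1% and 85.6% was above that of every one of the 20 genes in both libraries. Hnrnpd, which binds AU-rich RNA, had 53.0% and 58.1%, and Rpsa, a protein of the small ribosomal subunit, had 54.1% and 56.3%. Hnrnpa1 and Rpsa have near-identical copies in the genome, so their reads may be split among them.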
